A study of Mus musculus with 14 samples.

Results

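Control c-KIT+ spermatogonia were sequenced with 2 kinds of library, 1 that copies polyadenylated RNA and 1 that copies total RNA. These control libraries are 7 of the 14 samples of a mouse study of Cbx2, a chromodomain subunit of the Polycomb complex PRC1, and were chosen by their labels alone. The 2 polyA libraries came from C57BL/6J mice of genotype Rosa26-CreERT2; Cbx2 Flox/+ that had been given 200 µL of corn oil in each of 3 injections. The 5 total RNA libraries came from untreated C57BL/6J mice of genotype Cbx2 +/+. The recombinase carried by the polyA controls is driven from Rosa26, a locus expressed nearly everywhere, and so is not limited to germ cells. All cells were sorted from testes by flow cytometry for c-KIT, and the age of the mice is not given in the sources used here. The polyA libraries were made with SMART-Seq mRNA LP from an input of 20 ng, over 7 rounds of cDNA amplification and 11 library cycles, and the total RNA libraries with a SMARTer Stranded Total RNA kit, over 5 cycles, removal of ribosomal cDNA and 16 cycles. The labels' molecule field nevertheless gives polyA RNA for both. Kit, experiment, genotype and injection change together between the 2 sets, so that they cannot be told apart, and every difference below is one between sets of libraries. Each library was taken as 1 animal, and p-values cover animal and preparation spread jointly.

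Differentiating spermatogonia are male germ cells committed to meiosis. They carry the receptor c-KIT on their surface, divide several times, and switch on Stra8 under retinoic acid as they approach meiosis. Most messenger RNAs end in a poly(A) tail, and a kit that primes reverse transcription with oligo(dT) starts from that tail. A random-primed total RNA kit also copies RNAs that have no tail, and removes ribosomal RNA in a separate step. The messenger RNAs of replication-dependent histones, which supply new chromatin in S phase, end in a short stem-loop bound by SLBP in place of a tail. RNAs made by RNA polymerase III, and small nucleolar RNAs cut from introns, have no tail either. The comparison therefore asks what each library kind reports of c-KIT+ cells, sorted here from different mice, and for which gene classes the reports differ.

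The polyA libraries held 28169990 and 31166500 counts, and the total RNA libraries 14759463 to 19635332. A count above 0 was found for 19976 genes in each polyA library and for 14958 to 17330 in the total RNA libraries. Across genes, log2 values of the 2 polyA libraries correlated with r = 0.995, those of the total RNA libraries with r = 0.935 to 0.969, and libraries of different kits with r = 0.847 to 0.884. Genes are not independent replicates, and these values describe the libraries. Levels are given as CPM, the usual scaling of a gene's count to a fixed library size, with library sizes scaled by TMM, a method that centres the bulk of genes. TMM raised the polyA library sizes by a factor of 1.25 and 1.26 and set those of the total RNA libraries to 0.898 to 0.930 of their totals. Scaling by library totals alone lowers each log2 difference by about the same amount: the median of all genes moves from -0.06 to -0.52, and values under that scaling are best read against the second median. Shares of counts use the plain totals.

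Kit and Stra8, which mark these cells, were present in every library. Kit (chr5:75574916-75656722, GRCm38, plus strand), the receptor used for the sort, stood at 163 and 208 CPM in the polyA libraries and 297, 289.6, 254, 269.6 and 278 CPM in the total RNA libraries. It was higher in the total RNA libraries (log2 difference 0.58, SE 0.11, adjusted p = 0.0016 by the quasi-likelihood test of edgeR, adjusted by Benjamini-Hochberg, which is the test behind every adjusted p below unless another is named), the 2 sets of values did not overlap, and the call was lost with library totals alone (log2 difference 0.13, adjusted p = 0.39) and without polyA replicate 1 (adjusted p = 0.055). Stra8, which cells need to enter meiosis, stood at 454 and 408 CPM and 752, 864, 795, 852 and 698 CPM, again without overlap (log2 difference 0.88, SE 0.10, adjusted p = 4.3e-05). The germ cell helicase gene Ddx4 read 641 and 541 CPM in the polyA and 698, 694, 698, 733 and 634 CPM in the total RNA libraries, an overlap with no call by edgeR (log2 difference 0.23, 95% interval without adjustment 0.02 to 0.43, adjusted p = 0.072). Limma-voom called Ddx4 (adjusted p = 0.013), and with library totals alone its difference was -0.23. All 21 genes on a list for differentiating spermatogonia were detected with both kits. Cbx2 itself, the gene changed in the mutants, read 75.3 and 78.5 CPM in the polyA controls and 89.1, 85.7, 91.5, 58.3 and 74.0 CPM in the total RNA controls, with no call (log2 difference 0.05, SE 0.17, adjusted p = 0.85).

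Stem-loops of histone genes are shown first, because replication-dependent histones had the largest ratio of mean shares between the kits among 11 gene classes. Searched in all GENCODE vM21 transcripts as a stem that begins with GG, a loop that begins with TT and the exact reverse complement of the stem, such a stem-loop was found in 44 of the 69 replication-dependent histone genes of the tables (63.8%). The same search found 1 in 109 of 24450 other genes (0.446%). Of the 44, 26 share 1 stem-loop sequence. Read from the 5′ end to the 3′ end, with stem and loop in capitals, on GRCm38:
Hist1h1c (chr13:23739507-23739532, plus strand): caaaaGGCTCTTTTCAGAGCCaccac
Hist3h2a (chr11:58955167-58955192, plus strand): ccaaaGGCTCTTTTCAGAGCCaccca
Hist1h4c (chr13:23698084-23698109, minus strand): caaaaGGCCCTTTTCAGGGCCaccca
Hist1h2bb (chr13:23747198-23747223, plus strand): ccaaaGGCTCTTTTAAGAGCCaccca
Hist1h4j (chr13:21735432-21735457, plus strand): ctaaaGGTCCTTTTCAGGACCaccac
Several histone variants, which are made outside S phase, have a poly(A) signal near the 3′ end of their models, in capitals for 3 of them:
H3f3a (chr1:180800838-180800863, minus strand): tttgaaaaatAATAAAagtaccaata
H1f0 (chr15:79030473-79030498, plus strand): aaaactttaaAATAAAactggaaagg
H2afv (chr11:6427242-6427267, minus strand): aatgcacagaAATAAAgaaactagca
Small nucleolar RNAs guide the chemical modification of ribosomal RNA and are not polyadenylated. Their own boxes, the C and D boxes or the ACA box, are in capitals, and the RNAs are given whole because they are short:
Snord15a (chr7:99482785-99482932, minus strand): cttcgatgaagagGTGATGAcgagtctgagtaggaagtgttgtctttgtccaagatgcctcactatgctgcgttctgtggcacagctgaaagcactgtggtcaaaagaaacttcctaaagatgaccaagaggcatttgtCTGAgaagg
Snord15b (chr7:99479563-99479707, minus strand): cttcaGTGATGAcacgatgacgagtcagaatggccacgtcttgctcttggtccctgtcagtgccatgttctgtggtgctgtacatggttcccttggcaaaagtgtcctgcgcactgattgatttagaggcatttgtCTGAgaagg
Snora7a (chr6:115807975-115808114, minus strand): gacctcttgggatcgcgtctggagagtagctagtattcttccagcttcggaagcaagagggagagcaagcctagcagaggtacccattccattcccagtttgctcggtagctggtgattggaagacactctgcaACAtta
A match is a description of the letters and not a measurement of processing. A histone gene with no match may have a model that ends before its stem-loop.

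Across the transcriptome the kits ordered genes alike but set many of them at different levels. Of 24984 genes in the tables, 11281 had at least 1 CPM of plain counts in all 7 libraries, 14262 in both polyA libraries and 11474 in all total RNA libraries. Among the 16363 genes tested, the mean levels of the kits correlated across genes with a Spearman rho of 0.888. By the test, 3748 genes (22.9%) were higher and 3266 (20.0%) lower in the total RNA libraries. Scaling by library totals alone changes this split to 2508 higher and 5378 lower. Beyond a 2-fold difference, tested with glmTreat, 1611 genes (9.85%) were higher and 952 (5.82%) lower. The 2 sets of libraries did not overlap for 9673 genes (59.1%), and for 1219 genes (7.45%) the 95% interval of the difference lay within 1.5-fold of equality. Only 2 libraries stand on the polyA side: without replicate 1 of that kit 2809 genes were higher and 2133 lower, and without replicate 2, 2854 and 2160, with the lone library assumed to vary like the others.

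**Figure D1:**
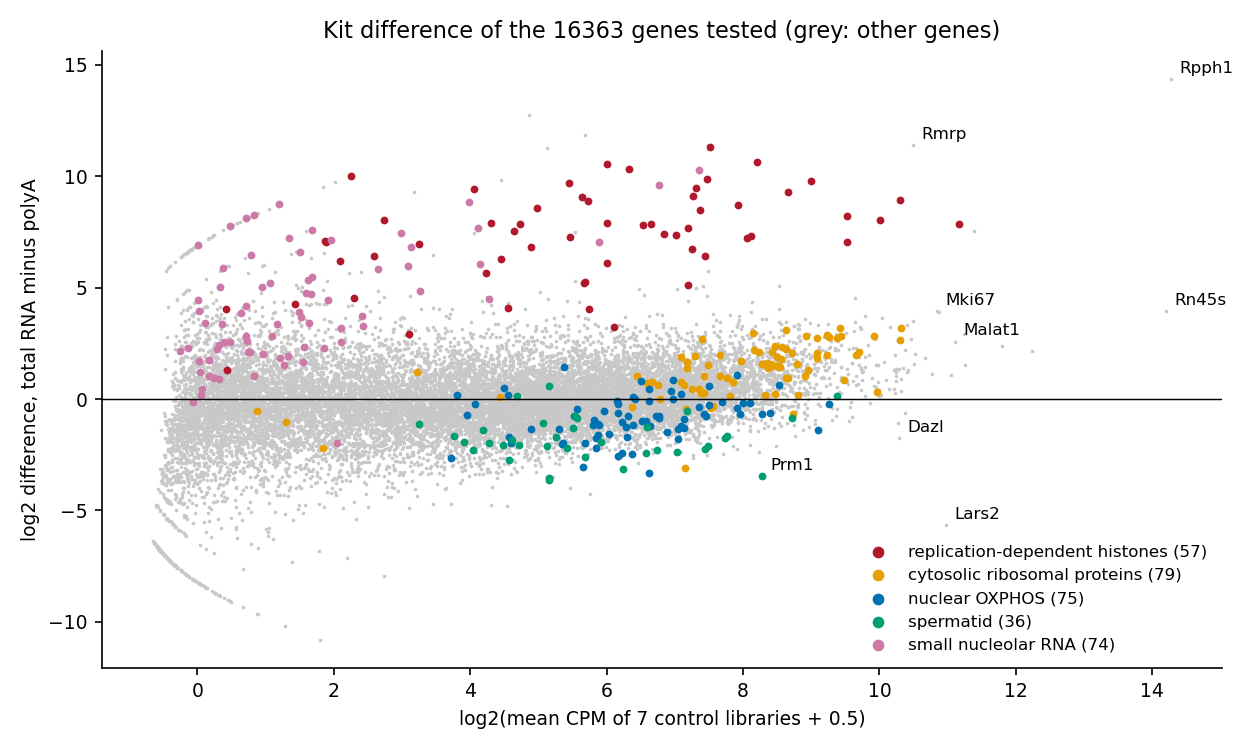
Each point is 1 of 16363 genes, with the log2 of its mean CPM over 7 control libraries (0.5 added) across and the log2 difference of total RNA minus polyA libraries upward; 5 gene lists are coloured and 8 genes named. Histone cluster genes and small nucleolar RNAs lie above 0 except for 2 small nucleolar RNAs, ribosomal protein genes mostly above it, and spermatid and OXPHOS genes mostly below it.

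Histone genes of the replication-dependent clusters had the largest ratio of mean shares between the kits, 130.3-fold, of the 11 classes into which all genes were divided. They took 0.0105 and 0.0108% of counts in the polyA libraries and 1.07, 1.54, 1.32, 1.66 and 1.35% in the total RNA libraries. Of 69 such genes 57 were tested. In the total RNA libraries 55 were higher (96.5%, against 22.9% of all genes) and none lower (against 20.0%). Beyond 2-fold 54 were higher, against 9.85% of all genes. Their median log2 difference was 7.56 (7.42 with the 1 gene at 0 in both polyA libraries set at its bound, a count of 3 over the group), against -0.06 for all genes tested, and 7.11 with library totals alone.

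Linker histone H1 genes, whose products bind between nucleosomes, had the highest summed CPM of the 5 histone types in each total RNA library. Hist1h1a (chr13:23763666-23764406), which encodes linker histone H1.1, read 13.4 and 13.9 CPM in the polyA libraries and 2353, 3579, 2924, 3954 and 3229 CPM in the total RNA libraries (log2 difference 7.87, SE 0.25, adjusted p = 4.7e-09). Hist1h1c, which encodes H1.2 and carries the first stem-loop above, read 3.04 and 4.04 CPM and 1475, 2016, 1723, 1986 and 1627 CPM (log2 difference 8.96 ± 0.22, adjusted p = 1.9e-09). For both genes all 5 total RNA libraries lay far above both polyA libraries. The 6 H1 genes summed to 19.3 and 21.5 CPM with the polyA kit and 4430.3, 6276, 5387, 6650.4 and 5477 CPM with the total RNA kit.

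Core histones followed. Hist1h2aa and Hist1h2ba encode the testis forms TH2A and TH2B, which replace other H2A and H2B in male germ cells. Hist1h2ba read 7.71 and 7.69 CPM in the polyA and 785, 1212, 886, 1253 and 1001 CPM in the total RNA libraries. Hist1h2aa read 2.53 and 4.42 CPM and 835, 1193, 919.8, 1199 and 1009 CPM. Their log2 differences were 7.06 ± 0.25 and 8.20 ± 0.29, both called. By type, 13 of 14 tested H2A genes, 15 of 15 H2B, 9 of 10 H3 and 12 of 12 H4 genes were higher with the total RNA kit, against 22.9% of all genes. Their medians were 8.03, 7.56, 6.89 and 7.59. The H2A gene Hist1h2al (31 counts in the polyA and 72 in the total RNA libraries) and the H3 gene Hist2h3b (5 and 89 counts) were not called by edgeR, and Hist2h3b was by DESeq2 (adjusted p = 0.015) and limma-voom (adjusted p = 0.027). The other 12 genes did not pass the filter, and several of these come in near-identical copies (Hist2h2aa1 and Hist2h2aa2, Hist2h3c1 and Hist2h3c2, Hist1h2ao and Hist1h2ap) at 0 to 4 counts over either kit. How reads that match several copies were counted is not given in the sources used here, so single core histone genes are less certain than the class.

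Cluster genes were higher in the total RNA libraries whether or not a stem-loop was found in the gene model. The 36 tested genes with one had a median of 7.39 and were all called, and the 21 without had a median of 7.82 with 19 called. Models in which none was found were shorter, with a median exon length of 0.399 kb against 0.667 kb. A model that ends before the stem-loop cannot show it, so this split does not separate genes that have a stem-loop from genes that lack one. Gm12260 (chr11:58961812-58962222), which GENCODE types as an unprocessed pseudogene and RefSeq names H3f4, an H3 gene, lies beside Hist3h2a. It read 18.7 and 20.9 CPM in the polyA libraries and 2719.9, 4023, 3896, 4356 and 3703 CPM in the total RNA libraries (log2 difference 7.56, SE 0.23, adjusted p = 3.5e-09). Per kilobase of exon its mean level in the total RNA libraries was 9098 CPM per kb against 4329 for Hist1h1a. It lies within the span of Trim17. Only Trim17 and H2bfm, of all genes outside the clusters, hold a stem-loop with the same letters as one of the cluster genes.

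Histone variants outside the replication-dependent list were a mixed group. Of 21 in the tables, Gm12260 included, 18 were tested, and 5 were higher (27.8%, against 22.9% of all genes) and 7 lower (38.9%, against 20.0%) in the total RNA libraries. No poly(A) signal was found near the end of the models of H3f3b and Gm12260. For the 18, the median was -0.60 (-1.05 with library totals alone). H3f3b, which encodes the replacement histone H3.3, read 2041 and 1899.9 CPM with the polyA kit and 814, 1022, 975, 968 and 949 CPM with the total RNA kit (log2 difference -1.06, SE 0.09, adjusted p = 3.0e-06). H3f3a encodes the same protein and read 165 and 149 CPM and 188, 235, 272, 239 and 229 CPM (log2 difference 0.57, SE 0.13, adjusted p = 0.0052), a call that was lost with library totals alone (adjusted p = 0.51), and without polyA replicate 2 (adjusted p = 0.055). H2afz and H2afv, genes of the variant H2A.Z, had log2 differences of -0.62 ± 0.13 and -1.14 ± 0.11, both lower in the total RNA libraries. H2afx, which encodes the DNA damage variant H2A.X and is known to yield both a stem-loop and a tailed transcript, went with the clusters at 42.8 and 51.9 CPM and 787, 1248, 1129, 1255 and 1095 CPM (log2 difference 4.54, SE 0.21, adjusted p = 4.0e-08).

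**Figure D2:**
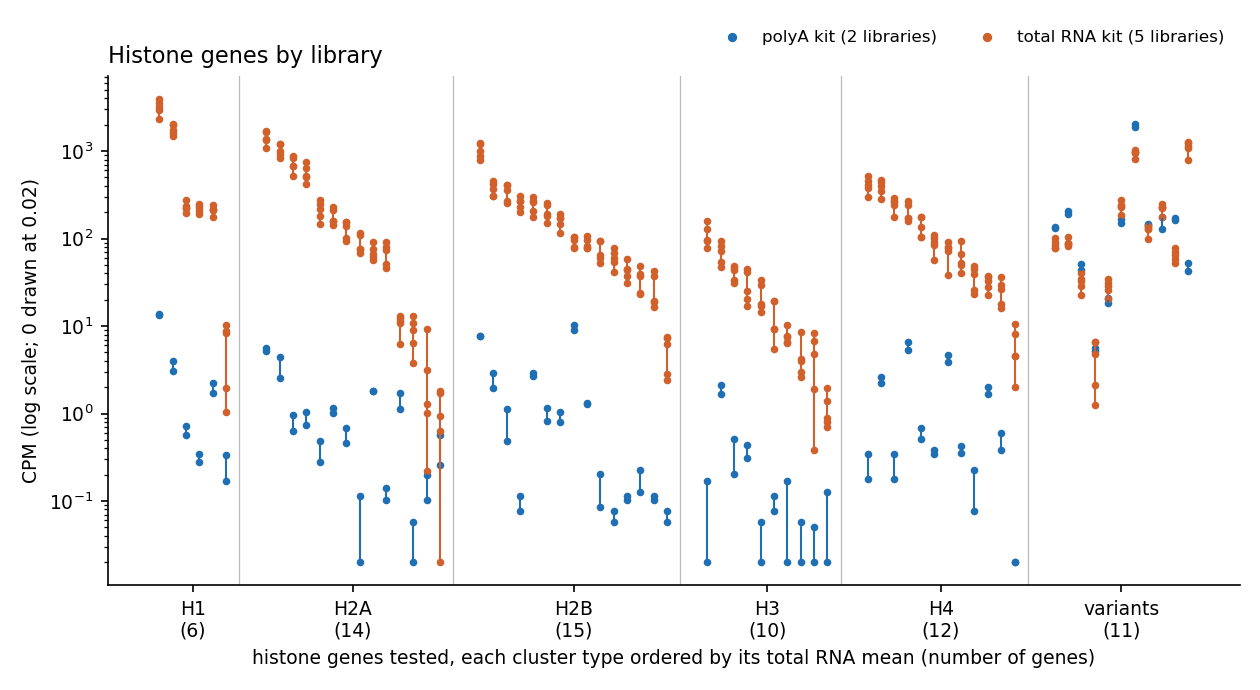
Levels of 57 cluster histone genes, by histone type, and of 11 variants, in CPM on a log axis, with a point for each library and a line over the range of each kit. The polyA libraries stay below 14 CPM for every cluster gene, and among the variants H2afx, the last column, has the widest gap between the kits.

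Structural and nuclear noncoding RNAs were the class with the largest share gained. They took 0.110 and 0.109% of counts in the polyA libraries and 1.98, 3.37, 3.71, 3.39 and 2.90% in the total RNA libraries, and 1 RNA, Rpph1, made up most of it there. Rpph1 (chr14:50807449-50807767), the RNA of ribonuclease P, read 1.02 and 1.56 CPM in the polyA libraries and 16673, 30578, 35479, 30499 and 25421 CPM in the total RNA libraries. Its log2 difference was 14.37 ± 0.46 (adjusted p = 4.8e-09), with an adjusted p of 0.082 by limma-voom at nearly the same difference, 14.34. Rmrp, the RNA of the related ribonuclease MRP, read 0.796 and 0.690 CPM and 1232, 2916, 1441, 2354 and 2109.7 CPM (log2 difference 11.39, SE 0.52, adjusted p = 3.3e-08). Both are made by RNA polymerase III, and both were near 1 CPM with the polyA kit while the lowest total RNA library held 1232 CPM of Rmrp.

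Several other RNAs of this list were also higher in the total RNA libraries, by smaller factors. Malat1, a nuclear speckle RNA, read 470.1 and 502 CPM in the polyA libraries and 2674, 2918, 3036, 3148 and 2699 CPM in the total RNA libraries (log2 difference 2.57, SE 0.10, adjusted p = 1.2e-08). Kcnq1ot1, the antisense RNA of an imprinted domain, had 44.4 and 46.1 CPM and 431, 577, 484, 528 and 479 CPM (log2 difference 3.47 ± 0.14, adjusted p = 1.3e-08). Telomerase RNA, from Terc, differed by 5.71 ± 0.86, and the paraspeckle RNA Neat1 by 1.66 ± 0.44, the second a call lost without either polyA library (adjusted p = 0.067 and 0.095). In all, 15 of 27 tested members were higher and none lower (22.9% and 20.0% of all genes), with a median of 1.66, or 1.20 with library totals alone.

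Small nucleolar RNAs, Cajal body RNAs and spliceosomal RNAs took a larger summed share in every total RNA library than in either polyA library, though single members were often not called. Together they took 0.00394 and 0.00361% of counts with the polyA kit and 0.0714, 0.133, 0.0635, 0.106 and 0.0998% with the total RNA kit. Snord15a, printed above, read 0.0853 and 0.255 CPM in the polyA libraries and 172, 335, 135, 259 and 234 CPM in the total RNA libraries (log2 difference 10.30, SE 0.57, adjusted p = 1.2e-07). Its neighbour Snord15b read 0.227 and 0.153 CPM and 95.1, 227, 80.8, 178 and 180.0 CPM. The H/ACA RNA Snora7a read 1.11 and 1.23 CPM and 23.8, 38.0, 23.6, 23.6 and 20.99 CPM (log2 difference 4.47, SE 0.38, adjusted p = 2.8e-06). Scarna6, of the Cajal body, had 0 counts in both polyA libraries and 24.2, 64.0, 31.8, 43.8 and 36.2 CPM in the total RNA libraries, at least 967-fold higher with 3 counts over the polyA group as the floor, which covers counting error only. Of 110 Snora and Snord genes 74 were tested. Of these 41 were higher (55.4%, against 22.9% of all genes) and none lower (against 20.0%). C/D box members had a median of 3.70 and H/ACA members 3.65. Both medians stood above that of all genes, -0.06. The median of all small nucleolar RNAs tested depends on the filter, at 3.31 with no filter and 6.07 with a filter at 5 CPM. The second filter keeps a gene when the mean of either kit reaches 5 CPM, so it favours members that are high with 1 kit. In the total RNA libraries the summed level ranged from 460.1 to 1073 CPM, a spread of over 2-fold among animals of 1 genotype.

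The transcripts that host these small RNAs in their introns were measured by both kits. Of 44 host transcripts, 24 were higher (54.5%, against 22.9% of all genes) and 5 lower (11.4%, against 20.0%) in the total RNA libraries, with a median of 0.50, or 0.04 with library totals alone. Ncl, which encodes the nucleolar protein nucleolin, read 1487 and 1321 CPM with the polyA kit and 6057, 6699, 6476, 6289 and 5481 CPM with the total RNA kit (log2 difference 2.14, SE 0.10, adjusted p = 4.1e-08). Noncoding hosts went both ways: Gas5 was called higher (0.48 ± 0.14), which was lost with library totals alone and without either polyA library (adjusted p = 0.89, 0.11 and 0.20), and Snhg3 (-2.00 ± 0.48) and Snhg9 (-4.30 ± 0.98, lost without polyA replicate 2 at adjusted p = 0.064) were lower. Counts of a small RNA and of its host can overlap in position, and the strand setting of the counting is not given.

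Loci that hold ribosomal RNA sequence split between the kits. Rn45s, the ribosomal RNA precursor, read 1387 and 1926 CPM in the polyA libraries and 30461, 28855, 21456, 21879.5 and 26129.5 CPM in the total RNA libraries (log2 difference 3.96, SE 0.20, adjusted p = 6.3e-08), and was the gene of highest count in 2 of the 5 total RNA libraries, with Rpph1 highest in the other 3. Lars2 (chr9:123366927-123462666), which encodes the mitochondrial leucyl-tRNA synthetase and is known for a ribosomal RNA-derived repeat near its 3′ end, was the gene of highest count in both polyA libraries at 5912 and 7549.6 CPM, against 158, 129, 107, 118 and 155 CPM with the total RNA kit (log2 difference -5.66, SE 0.15, adjusted p = 1.9e-09). The fitted difference is 50.5-fold, in the direction opposite to Rn45s.

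MicroRNA loci, annotated as short hairpins, gave too few counts to describe as a class. Of 1180 loci 101 were tested, and 39 of those had 0 counts in both polyA libraries. Of the 101, 34 were higher (33.7%, against 22.9% of all genes) and 4 lower (3.96%, against 20.0%) in the total RNA libraries. The median log2 difference of 5.13 was 3.96 with loci at 0 set to their bound. The median depends on which loci are tested and how: it was 0.89 with a filter at 5 CPM, 2.38 with no filter and 3.47 by limma-voom. Mir6236, the called locus of highest mean CPM, went the other way, at 161 and 262 CPM against 132, 103, 38.4, 72.5 and 106 CPM (log2 difference -1.23 ± 0.34, adjusted p = 0.013), a call lost without polyA replicate 2 (adjusted p = 0.066).

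**Figure D3:**
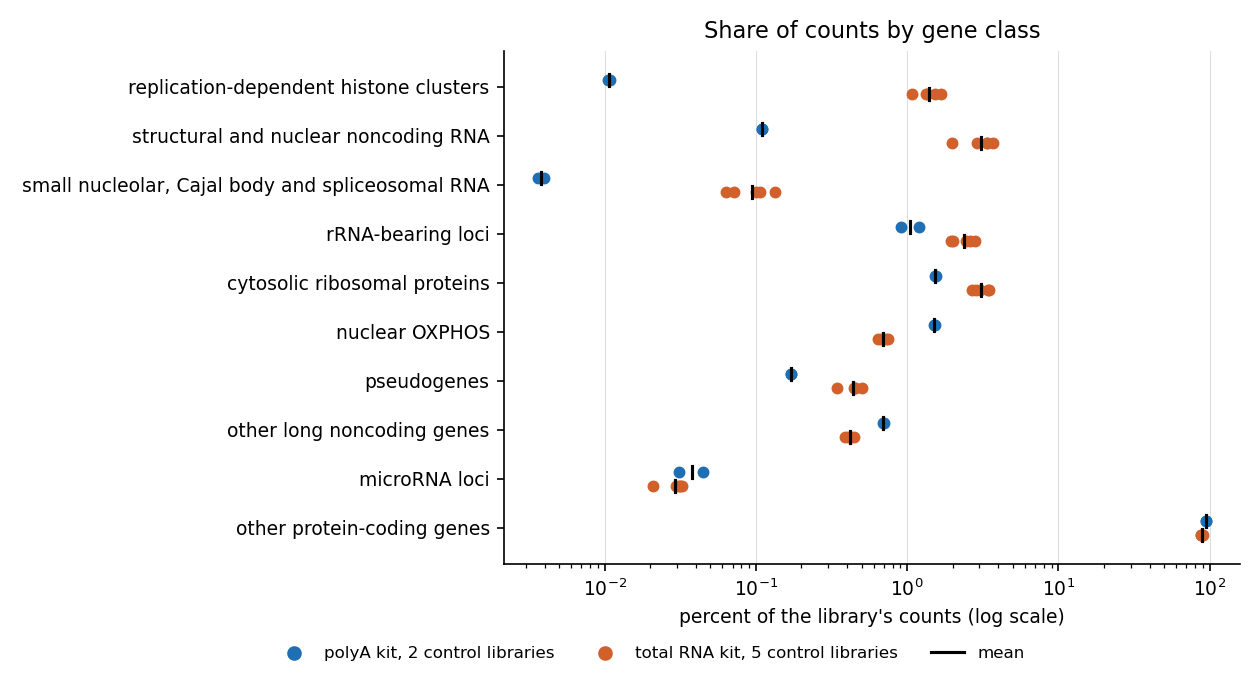
Percent of counts in 10 gene classes, on a log axis, with a point for each library and a black bar for the mean of each kit. The mean shares are 130.3-fold apart for histone clusters, 28.1-fold for structural RNAs and 25.1-fold for small nucleolar and related RNAs, whereas other protein-coding genes lie at 94.8% and 88.3%.

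As shares of counts, structural RNAs gained 2.96 percentage points with the total RNA kit, histone clusters 1.38, ribosomal RNA-bearing loci 1.31 and cytosolic ribosomal protein genes 1.56. Nuclear genes of oxidative phosphorylation fell by 0.82 points and other protein-coding genes fell by 6.47. The 2 kits did not overlap for 10 of the 11 classes, all but the microRNA loci. With 2 libraries on 1 side and 5 on the other, a two-sided exact permutation test has 21 arrangements and cannot give a p below 0.0952, the value it gave for those 10 classes (0.105 after Benjamini-Hochberg adjustment over the 11). Shares sum to the whole, so that a gain in 1 class lowers the others.

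Ribosomal protein genes, whose messages are short and tailed, were higher in the total RNA libraries. Their summed level was 12363 and 12072 CPM in the polyA libraries and 29167, 37939.5, 33428, 38128 and 30529 CPM in the total RNA libraries. Of 79 tested, 61 were higher (77.2%, against 22.9% of all genes) and 3 lower (3.80%, against 20.0%). Beyond 2-fold were 43 and 1, against 9.85% and 5.82% of all genes. The median was 1.46, or 1.00 with library totals alone. Rpsa, which encodes a small-subunit protein, read 189 and 184 CPM and 1573, 1884, 1813, 1858 and 1455 CPM (log2 difference 3.20, SE 0.13, adjusted p = 1.5e-08). Rplp2, of the ribosomal stalk, read 169 and 192 CPM and 1209.7, 1426, 1259, 1366 and 1160.2 CPM (log2 difference 2.83 ± 0.12). Large-subunit genes were called higher in 40 of 45 cases and small-subunit genes in 19 of 32, with medians of 1.62 and 0.95. Among the genes that went the other way was Rps27l (-3.09 ± 0.16), a paralog of Rps27 induced by p53. Rpl4, a large-subunit gene at 856 and 821 CPM and 1046, 1109, 974, 1130.3 and 1036 CPM, was called higher (0.34 ± 0.08, adjusted p = 0.0069) but turned to -0.12 with library totals alone and lost the call without polyA replicate 2 (adjusted p = 0.098). Ribosomal protein genes have many processed pseudogenes, and where reads that match both were counted is not given.

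Nuclear genes of oxidative phosphorylation went the other way. Their summed level was 11985 and 12144 CPM with the polyA kit and 6939, 8009, 7461, 8109.8 and 7434 CPM with the total RNA kit, and 50 of 75 tested were lower and 7 higher, against 20.0% and 22.9% of all genes. The median was -0.77, or -1.22 with library totals alone. Atp5b, the catalytic beta subunit of ATP synthase, read 919 and 1029 CPM and 365, 369, 409.6, 345 and 383 CPM (log2 difference -1.38, SE 0.09, adjusted p = 2.8e-07). All 5 complexes shared the direction: 22 of 35 complex I genes, 3 of 4 complex II, 6 of 9 complex III, 8 of 11 complex IV and 11 of 15 ATP synthase genes were lower. Cox6c, a complex IV subunit, was an exception at 275 and 263 CPM and 367, 416, 385, 474 and 408 CPM (log2 difference 0.61, SE 0.11, adjusted p = 8.2e-04), a call lost with library totals alone (adjusted p = 0.26).

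Exon length, taken over all models of a gene together, went with the kit difference across protein-coding genes. Outside the histone clusters, 14740 such genes were tested. The median log2 difference was -1.47 for the 460 genes with up to 1 kb of exon, -0.93 for 1 to 2 kb, -0.36 for 2 to 4 kb, 0.17 for 4 to 8 kb and 0.87 for the 2540 genes above 8 kb. With library totals alone the order was the same, from -1.94 to 0.42. In the shortest bin 4.57% of genes were higher and 46.1% lower, and in the longest 53.0% and 6.50%. Across these genes exon length and the difference had a Spearman rho of 0.448, whereas GC content and the difference had -0.0146. Among GC-poor transcripts (up to 46% GC) the medians were -1.34 up to 2 kb and 0.31 above 4 kb, and above 50% GC they were -0.89 and 0.45. Longer genes also had higher CPM: medians ran from 5.81 CPM in the shortest to 51.9 CPM in the longest bin. CPM is not divided by length, so this does not show that longer genes had more messages. The part of count level in the result was not tested.

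The lists above were also set against genes of like length. Ribosomal protein genes lay a median of 2.02 above the median of their own length bin. Oxidative phosphorylation genes, of nearly the same exon length (1.76 against 1.77 kb), lay at -0.06. Spermatid genes lay at -1.02 and G2/M genes at 0.25. The oxidative phosphorylation list thus lay near the median of protein-coding genes of its exon length, and the ribosomal protein and spermatid lists did not. Its complexes differed, at 0.13 for complex I, -0.83 for complex II, -0.19 for complex III, 0.01 for complex IV and -0.28 for ATP synthase. These are descriptions of medians with no test.

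**Figure D4:**
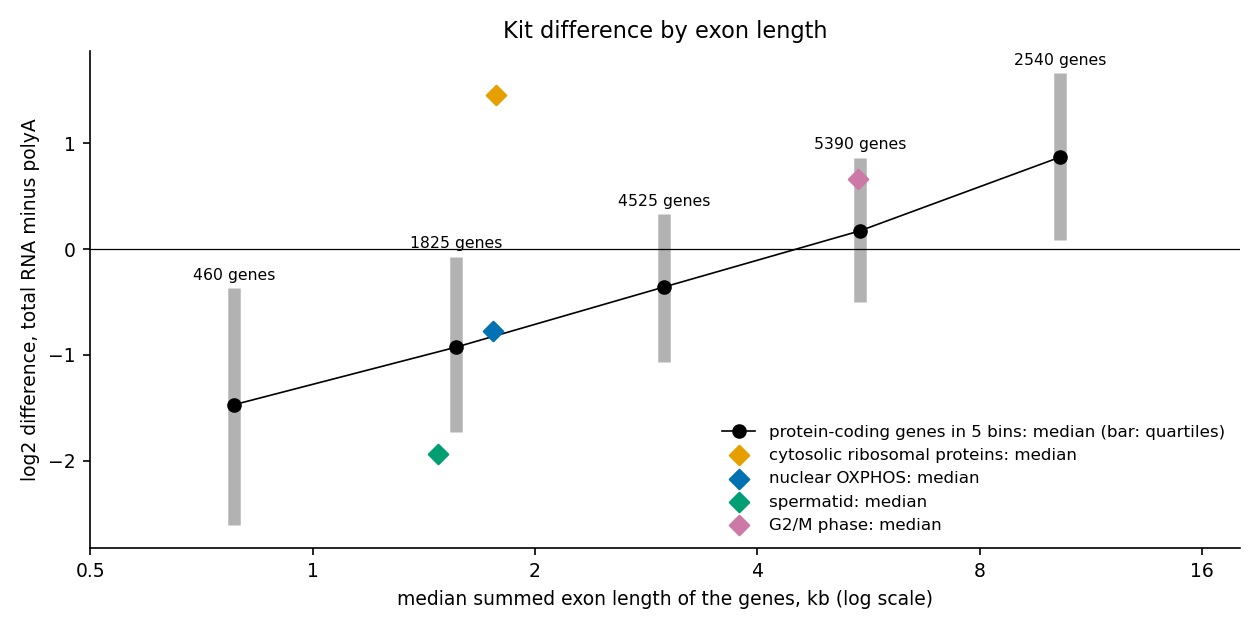
Median log2 difference of total RNA minus polyA libraries in 5 bins of summed exon length, drawn at each bin's median length on a log axis, with bars over the quartiles and the medians of 4 gene lists as diamonds. Bins run from -1.47 to 0.87, the oxidative phosphorylation diamond lies on the line, the ribosomal protein diamond above it and the spermatid diamond below it.

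Cell cycle genes, active in these dividing cells, were read differently gene by gene. Mki67, the proliferation marker, read 162 and 161 CPM in the polyA libraries and 2521, 2624, 2374, 2521 and 2493 CPM in the total RNA libraries (log2 difference 3.96, SE 0.09, adjusted p = 1.9e-09), a 15.5-fold difference. Cenpf, a kinetochore protein gene with 15433 bases of exon, read 449.5 and 411 CPM and 3178, 3365, 3412, 3228 and 2851 CPM (log2 difference 2.90, SE 0.10, adjusted p = 7.4e-09). Top2a, of topoisomerase II, differed by 1.30 ± 0.09. Of 41 G2/M genes 23 were higher (56.1%, against 22.9% of all genes) and 11 lower (26.8%, against 20.0%), with a median of 0.67, or 0.21 with library totals alone. Among the 11 lower genes were the mitotic regulators Cdc20 (-1.21 ± 0.12), Bub3 (-1.52 ± 0.17), Ccnb2 (-0.71 ± 0.14) and Cdk1 (-0.52 ± 0.16), the catalytic partner of mitotic cyclins, whose call was lost without either polyA library (adjusted p = 0.14 and 0.10).

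DNA replication genes were called near the rate of all genes, with 14 of 51 higher (27.5%, against 22.9%) and 14 lower (27.5%, against 20.0%) and a median of -0.14 (-0.60 with library totals alone). Pole, the catalytic subunit of DNA polymerase epsilon, read 169.7 and 188 CPM and 568, 565, 576, 547 and 644 CPM (log2 difference 1.70, SE 0.10, adjusted p = 1.9e-07). Casp8ap2, which takes part in histone message processing, differed by 1.56 ± 0.09 in the same direction. Slbp, which binds the histone stem-loop, was lower in the total RNA libraries at 483 and 438 CPM and 288, 323, 294, 325 and 292 CPM (log2 difference -0.60, SE 0.09, adjusted p = 2.2e-04). Rrm2, a ribonucleotide reductase subunit of S phase, was lower as well (-1.49 ± 0.14). Npat, the activator of histone gene transcription, was not called (0.25 ± 0.12).

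Genes of meiosis, whose programme begins in these cells, were called in both directions. Of 40 tested, 12 were higher and 14 lower (35.0%, against 20.0% of all genes), with a median of -0.04, or -0.50 with library totals alone. Smc1b, the meiotic cohesin subunit, read 698 and 616 CPM in the polyA libraries and 1674, 1631, 1659, 1683 and 1578 CPM in the total RNA libraries (log2 difference 1.32, SE 0.08, adjusted p = 2.8e-07). Sycp3, of the synaptonemal complex axis, read 869 and 815 CPM and 317, 306, 316, 377 and 279 CPM (log2 difference -1.40, SE 0.10, adjusted p = 1.1e-06), the opposite direction without overlap. Its partner Sycp1 read 1046 and 1027 CPM and 1129, 1256, 1275, 1436 and 1259 CPM; it was called higher (0.29 ± 0.09, adjusted p = 0.026) and turned to -0.16 with library totals alone, and the call was lost without polyA replicate 1, polyA replicate 2 or total RNA replicate 5 (adjusted p = 0.11, 0.16 and 0.055). Tex15, a gene of meiotic recombination, was higher by 1.33 ± 0.13, and the synaptonemal and telomere complex genes Tex12 (-2.17 ± 0.19) and Terb2 (-1.80 ± 0.20) were lower.

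Genes of differentiating and undifferentiated spermatogonia had summed levels that differed little but did not overlap between the kits. Ratios of the mean sums, total RNA over polyA, were 1.13 and 0.876. Median log2 differences were -0.24 and -0.54, against -0.06 for all genes. With library totals alone they were -0.69 and -0.9998, against -0.52. Of the genes tested, 11 of 21 and 25 of 32 lay below 0. The differentiating list was thus higher by its sum and lower by its median. The 21 differentiating genes summed to 4029 and 3881 CPM in the polyA libraries and 4422, 4583, 4391, 4623 and 4262 CPM in the total RNA libraries, and 9 were higher (42.9%, against 22.9% of all genes) and 3 lower (14.3%, against 20.0%). Tex14, an intercellular bridge gene, was higher at 206 and 199 CPM and 519, 476, 463, 489 and 458 CPM (log2 difference 1.25, SE 0.09, adjusted p = 8.5e-07). Tex101, a germ cell surface protein gene, was lower at 789 and 789 CPM and 168, 215, 165, 197 and 177 CPM (log2 difference -2.10, SE 0.11, adjusted p = 6.5e-08). The 37 undifferentiated genes, of stem and progenitor cells, summed to 1195 and 1302 CPM and 1170.0, 1096, 1073, 1012 and 1114 CPM, with 2 of 32 tested higher (6.25%) and 6 lower (18.8%), the second near the 20.0% of all genes. Zbtb16, a transcription factor of progenitors, was higher at 26.4 and 27.8 CPM and 103, 70.2, 104, 69.8 and 79.7 CPM (log2 difference 1.66, SE 0.20, adjusted p = 5.5e-05). Gfra1, the GDNF receptor of stem cells, was low throughout, at 7.53 and 7.64 CPM and 0.776, 2.02, 0.422, 1.71 and 0.219 CPM (log2 difference -2.87, SE 0.80, adjusted p = 0.013), a call lost without either polyA library (adjusted p = 0.094 and 0.098).

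Germ granule and piRNA genes protect the germline from transposons and regulate stored messages. Of 28 tested, 6 were higher (21.4%, against 22.9% of all genes) and 10 lower (35.7%, against 20.0%), with a median of -0.26 (-0.71 with library totals alone). Dazl (chr17:50279395-50293636), an RNA-binding regulator of germ cell translation, read 2683 and 2338 CPM in the polyA libraries and 645, 760.0, 737, 842 and 729.9 CPM in the total RNA libraries (log2 difference -1.76, SE 0.10, adjusted p = 1.2e-07). It ranked 8 among protein-coding genes per kilobase with the polyA kit and 138 with the total RNA kit. Mael, a piRNA factor, was lower at 626 and 587 CPM and 215, 263, 228, 269 and 252 CPM (log2 difference -1.31, SE 0.10, adjusted p = 1.2e-06), and so were Gtsf1 (-1.74 ± 0.17) and Pld6 (-1.63 ± 0.25). Mov10l1, the helicase that starts piRNA processing, was higher at 305 and 309 CPM and 528, 534, 511, 506 and 506 CPM (log2 difference 0.75, SE 0.08, adjusted p = 1.6e-05). Pabpc1, which encodes a poly(A)-binding protein, was higher by 1.42 ± 0.12.

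Polycomb genes, the subject of the study, were measured at close summed levels, 3908 and 3846 CPM with the polyA kit and 4129, 4127, 4096, 3985 and 3971 CPM with the total RNA kit. Of 33 tested, 11 were higher and 7 lower, against 22.9% and 20.0% of all genes. The median was 0.21, or -0.24 with library totals alone, against -0.06 and -0.52 for all genes. Jarid2, a PRC2 cofactor, was higher at 202 and 215 CPM and 456, 368, 343, 339.8 and 349.9 CPM (log2 difference 0.83, SE 0.13, adjusted p = 2.6e-04). Rbbp4, a histone-binding subunit of PRC2 and other complexes, was lower at 632 and 639 CPM and 299, 364, 301, 277 and 285 CPM (log2 difference -1.06, SE 0.10, adjusted p = 9.8e-06). Ezh2, the PRC2 methyltransferase, was higher by 0.69 ± 0.11, a call lost with library totals alone (adjusted p = 0.10). The PRC1 ligase genes Ring1 (-1.23 ± 0.37) and Rnf2 (-0.50 ± 0.11) were lower, and both lost the call without polyA replicate 1 (adjusted p = 0.069 and 0.052), Ring1 also without polyA replicate 2 (adjusted p = 0.14). Scml2, a germline partner of PRC1, was called higher (0.31 ± 0.10, adjusted p = 0.025) but stood at -0.14 with library totals alone, and the call was lost without either polyA library (adjusted p = 0.054 and 0.32) and without total RNA replicate 4 or 5 (adjusted p = 0.051 and 0.054).

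Spermatid genes, which belong to cells far later than c-KIT+ spermatogonia, were present with both kits and lower with the total RNA kit. Their summed level was 6328 and 6669.7 CPM in the polyA libraries and 2071, 1165, 2697, 2487 and 3294 CPM in the total RNA libraries. Prm1, which packs sperm DNA, read 817 and 951 CPM and 53.7, 42.6, 72.9, 94.8 and 139 CPM (log2 difference -3.46, SE 0.32, adjusted p = 6.4e-06). Ldhc, the sperm form of lactate dehydrogenase, read 398 and 389 CPM and 85.5, 39.1, 111, 90.0 and 136 CPM (log2 difference -2.09, SE 0.31, adjusted p = 2.1e-04). Of 36 tested, 27 were lower and none higher, 21 of them beyond 2-fold, with a median of -1.94, or -2.39 with library totals alone. Prm2 (600.4 and 622 CPM and 269, 108, 436, 415 and 491 CPM) and Tnp1 (175 and 199 CPM and 123, 57.1, 113, 151 and 195 CPM) were not called (adjusted p = 0.12 and 0.20), though both were with library totals alone (adjusted p = 0.022 and 0.027) and by limma-voom (0.015 and 0.044). The total RNA libraries differ among themselves by over 2-fold in this sum, from replicate 2 to replicate 5. In bulk samples fewer cells of a type and less RNA per cell cannot be told apart. These genes are short, with a median exon length of 1.48 kb, and the part of late germ cells in the sorted fractions was not tested.

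**Figure D5:**
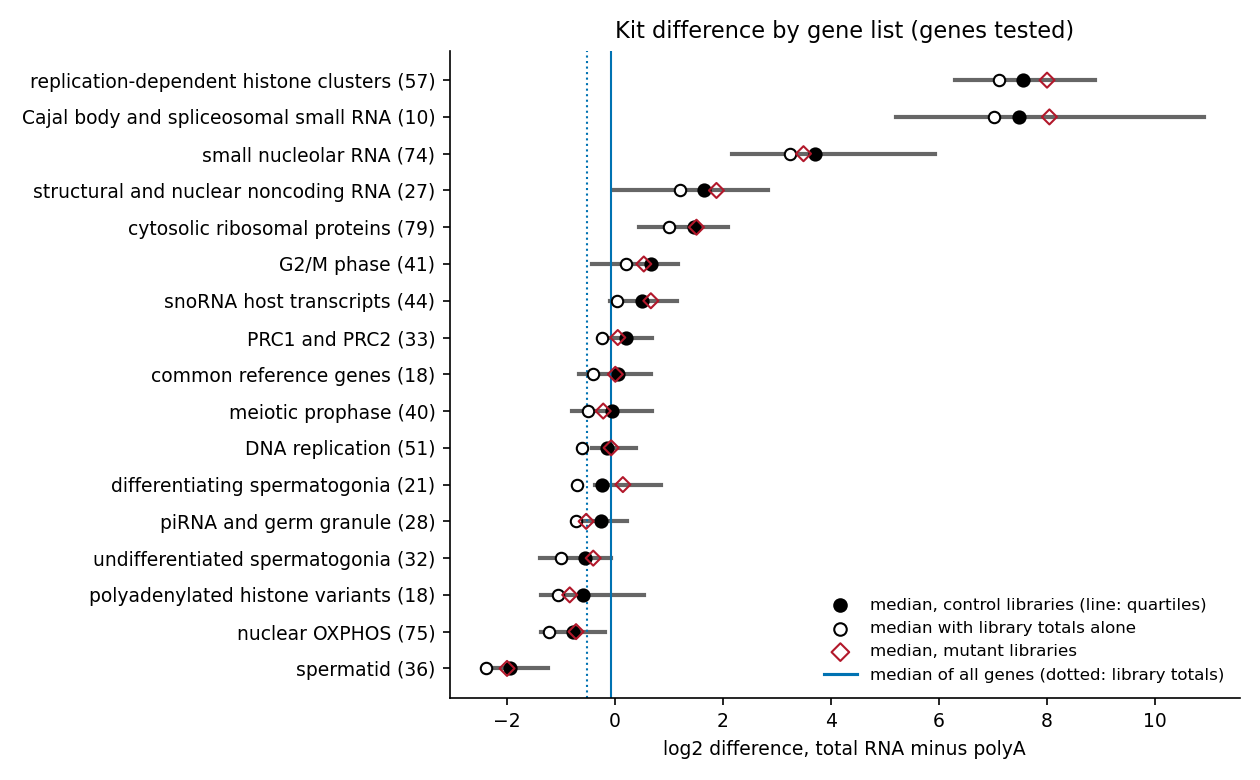
Median log2 difference of total RNA minus polyA control libraries for 17 gene lists (filled, with a line over the quartiles), with library totals alone (open) and in the mutant libraries (red diamonds); blue lines mark the median of all genes. Histone clusters lie farthest to the right at 7.56 and spermatid genes farthest to the left at -1.94, and the mutant medians lie on the same side of the all-gene median as the control medians for both.

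Markers of other testis cells were found with both kits. Leydig cell markers summed to 140.1 and 145 CPM in the polyA and 129, 124, 121, 101 and 107 CPM in the total RNA libraries. Of 10 tested, 2 were higher (20.0%, against 22.9% of all genes) and 1 lower (against 20.0%). Below 0 lay 8 of the 10, with a median of -1.03, against -0.06 for all genes. That median was -0.13 with a filter at 5 CPM and -2.10 by limma-voom. The markers Cyp17a1 and Insl3 were not called by edgeR. Limma-voom called both lower (log2 differences -3.86 and -3.44, adjusted p = 0.0073 and 0.028). Sertoli cell markers summed to 332 and 307 CPM and 237, 189, 212, 199.7 and 160.4 CPM. Of 19 tested, 1 was higher (5.26%, against 22.9% of all genes) and 5 lower (26.3%, against 20.0%), with a median of -0.63. Amh stayed at or below 0.493 CPM and Sox9 at or below 6.84 CPM in all 7 libraries, and Wt1 reached 11.1 CPM in total RNA replicate 1. Most of the sum in the total RNA libraries thus came from other members of the list. Endothelial markers summed to 36.4 and 35.0 CPM and 23.7, 23.9, 20.6, 29.1 and 29.9 CPM, and myoid and stromal markers to 68.9 and 71.4 CPM and 131, 81.4, 103, 107 and 118 CPM. Mast cell and erythroid markers were at most 2.96 CPM in all, with Hbb-bs at 0 in all 7 libraries. Their part in the kit differences was not tested.

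Macrophage and leukocyte markers were uneven among the total RNA libraries. None of the 18 was called by edgeR, against 22.9% and 20.0% of all genes, and the number at an unadjusted p under 0.05 was 1. They summed to 70.9 and 55.3 CPM in the polyA libraries and 36.2, 34.7, 230.0, 52.3 and 16.4 CPM in the total RNA libraries, with replicate 3 far above the other 4. Cd74, the invariant chain of antigen presentation, read 13.8 and 13.6 CPM and 7.59, 3.82, 60.2, 14.3 and 0.802 CPM. Without replicate 3 the median log2 difference of this list moved from 0.33 to -1.04, and H2-Ab1, a class II gene, was then lower in the total RNA libraries (-0.99, adjusted p = 0.035).

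The genes of highest level per kilobase of exon differed between the kits. Among protein-coding genes, none of the 10 highest was shared and 31 of the 100 highest were. With the polyA kit the highest included Prm1, Tnp2, Tuba3a, Prm2, Sycp3, H3f3b, Dazl, Calm2 and Lars2, from 1549 to 607 CPM per kb. With the total RNA kit they were Hist1h1a, Hist1h2ba, Hist1h2aa, Hist1h2ak, Hist1h2ai, Hist1h4k, Hsp90aa1, Hist1h1c, Rplp1 and Ptma, from 4329 to 1077 CPM per kb. Hsp90aa1, a chaperone gene with a testis role, read 942 and 859 CPM in the polyA and 4592, 4797, 4939.5, 4773 and 4001 CPM in the total RNA libraries (log2 difference 2.36, SE 0.10, adjusted p = 2.7e-08). Calm2, a calmodulin gene and one of the top genes of the polyA kit, was itself called higher in the total RNA libraries (0.46 ± 0.12, adjusted p = 0.010), a call lost with library totals alone (0.01, adjusted p = 0.97), and without polyA replicate 2 (adjusted p = 0.091).

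Among called genes with at least 10 CPM in the higher kit and no overlap, the 10 with the largest difference in each direction were of few kinds. Higher in the total RNA libraries were Rpph1, Rmrp, 3 Cajal body RNAs (Scarna6, Scarna10 and Scarna2), Snord15a and the histone genes Hist1h2bn, Hist1h4k, Hist1h2ah and Hist1h3b. Lower were Lars2, the late germ cell genes Cypt4, Cypt2, Pfn3, Spaca3 and Tmco2, the LIM-domain gene Fhl5, the noncoding RNA Mirt1 and the loci Mir684-1 and Mir6240. Fhl5, a testis coactivator, read 74.6 and 71.7 CPM in the polyA libraries and 4.76, 0.750, 2.11, 3.80 and 1.53 CPM in the total RNA libraries (log2 difference -4.79, SE 0.47, adjusted p = 8.4e-06). Cypt4 read 10.5 and 10.4 CPM with the polyA kit and 0 counts in all 5 total RNA libraries, at least 262-fold lower with 3 counts over the group as the floor. In all, 66 genes with at least 1 CPM in both polyA libraries had 0 counts in every total RNA library, and 5 showed the reverse, in libraries of 14759463 counts and more.

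Genes often used as references for other measurements were called at about the rate of all genes. Of 18, 6 were higher (33.3%, against 22.9%) and 4 lower (22.2%, against 20.0%). The median was 0.06, or -0.40 with library totals alone, against -0.06 and -0.52 for all genes. Hsp90ab1, a cytosolic chaperone gene, read 967 and 1095 CPM and 3494, 3135, 2911, 2628 and 2900.2 CPM (log2 difference 1.55, SE 0.12, adjusted p = 1.1e-06). Eef1a1, an elongation factor gene, was higher by 1.21 ± 0.12 and Polr2a, of RNA polymerase II, by 2.30 ± 0.17. Actb was lower at 725 and 795 CPM and 528, 637, 598, 508 and 627 CPM (log2 difference -0.39, SE 0.10, adjusted p = 0.010), a call lost without polyA replicate 2 (adjusted p = 0.072). Hprt (-1.53 ± 0.13) and B2m (-1.60 ± 0.35, lost without polyA replicate 1 at adjusted p = 0.081) were lower. Gapdh (0.25 ± 0.10), Ppia (-0.04 ± 0.17) and Tbp (0.15 ± 0.12) were not called by edgeR, which does not show that they are equal: limma-voom called Gapdh (adjusted p = 0.022) and library totals alone called Ppia (adjusted p = 0.025).

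Gene models known by a clone or number alone were seldom called higher in the total RNA libraries. RIKEN and Gm models had a median of -0.90 over 1588 tested (-1.60 by limma-voom), with 116 higher (7.30%, against 22.9% of all genes) and 295 lower (18.6%, against 20.0%). Noncoding antisense and opposite-strand genes had a median of -1.08 over 82 tested (-1.94 with a filter at 5 CPM), with 2 higher (2.44%) and 15 lower (18.3%), so that here too the share lower was near that of all genes. Of the called members the one of highest mean CPM, Cep83os, read 55.4 and 53.9 CPM and 20.4, 23.8, 21.3, 17.9 and 25.7 CPM. Immediate-early genes, which respond to handling, had 5 of 25 higher (20.0%) and 4 lower (16.0%), near the shares of all genes, and summed to 589.9 and 627 CPM and 526, 499, 660.3, 479 and 531 CPM, which overlap. Genes of the retinoic acid response had 3 of 20 higher (15.0%) and 2 lower.

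The mutant libraries of the 2 experiments offer the same contrast in other animals. The 2 polyA mutant libraries came from Rosa26-CreERT2; Cbx2 Flox/Δ mice given tamoxifen, and the 5 total RNA ones from untreated Cbx2 23KRA/23KRA mice. There 3855 of 16494 genes (23.4%) were higher and 3732 (22.6%) lower in the total RNA libraries. Of the genes called in the controls, 3416 were called in the same direction on the higher side, which is 91.1% of the control calls and 88.6% of the mutant calls. On the lower side 2842 were, 87.0% of the control and 76.2% of the mutant calls, and none was called in the opposite direction. Histone clusters had a median of 8.01, small nucleolar RNAs 3.50, ribosomal protein genes 1.51, oxidative phosphorylation genes -0.72 and spermatid genes -2.00. The mutant libraries share the kit, the experiment and the preparation of their controls, so they repeat the kit contrast without separating it from the experiment. No gene of 17227 passed edgeR's test of kit by mutation (smallest adjusted p = 1.00), the only test run of it, and 112 did so at an unadjusted p under 0.05. These are fewer than the share of 0.05 that chance alone would give, so the test was strict here. Its lack of calls cannot show that the kit difference is the same in control and mutant libraries.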

How the data were processed

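The deposited values are raw read counts per gene, in 1 table for each experiment, joined by gene symbol. Per the submitters' processing notes the tools used were Trim Galore 0.4.3, STAR 2.5.3, SAMtools 1.4.1 and featureCounts of Subread 1.5.0, with build mm10. The gene annotation, strand setting and treatment of reads with several matches could not be read from labels or headers (not given in the sources used here). From the counts, genes were filtered with filterByExpr by kit, scaled by TMM and tested with edgeR 4.0.16 (quasi-likelihood test, R 4.3.3) with Benjamini-Hochberg adjustment at 0.05. Only control libraries entered the main fit, with no covariate, and the 2 kits shared 1 spread with 5 residual degrees of freedom. A log2 difference is total RNA minus polyA, given ± its SE, and a value of 0.5 CPM was added where levels were logged for plots and correlations. Alternatives used library totals, DESeq2 1.42.0, its size factors, upper quartile factors, limma 3.58.1 voom, other filters, a minimum difference, a replicate block and each library left out. Permutation tests used scipy 1.17.1 and Python 3.11.15. Of 24984 symbols, 24519 matched GENCODE vM21 (GRCm38), the source of positions, exon lengths, transcript letters and types. The edgeR fit was also run on 3 simulated sets of counts with 200 genes changed. Each simulated gene had the same spread in both kits, unlike these data, so the simulation cannot show how the fit does when the spreads differ.

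The members and gene lists were chosen with earlier results of these data known. Genes named are Kit and Stra8, cell type markers, up to 4 called members of each list with the highest mean CPM, the 10 largest differences in each direction at a mean of 10 CPM or more without overlap, and the 10 highest per kilobase in each kit. The following were named after their values were seen: Rps27l, Hist1h2al, Hist2h3b, Slbp, Npat, Rrm2, Cdc20, Bub3, Ccnb2, Cdk1, H2afz, H2afv, Terc, Neat1, Gas5, Snhg3, Snhg9, Tex12, Terb2, Gtsf1, Pld6, Ezh2, Ring1, Rnf2, Hprt, B2m, Polr2a, Gapdh, Ppia, Tbp, Cbx2 and Eef1a1. The list of antisense symbols was corrected to noncoding genes after its matches were seen. Some genes that meet these rules are not reported here.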

Additional observations from a re-analysis of the deposited data

Results flagged for a closer look

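In groups of 5, a library whose gap to its nearest neighbour exceeds 0.71 of the whole range was singled out by Dixon's criterion. Chance singles out about 5% of independent groups of normal values, and 19 of 215 checks on the total RNA controls met it. The checks are not independent, since markers of 1 cell type move together and the microRNA loci were checked both as a sum and as a share. The 19 therefore cannot be set against that 5%. Replicate 3 stood highest for Cd74 (60.2 CPM), H2-Ab1 (53.0 CPM), Csf1r (9.58 CPM) and C1qa (7.96 CPM), for the summed leukocyte markers (230.0 CPM) and for the summed immediate-early genes (660.3 CPM). It stood lowest for the meiotic gene Terb2 (10.8 CPM) and for the microRNA loci, at 245 CPM and 0.0209% of counts. Replicate 2 stood highest for Snora7a (38.0 CPM), Scarna2 (63.3 CPM), Rbbp4 (364 CPM), Ptma (1819 CPM) and Mir6240 (0.300 CPM). Replicate 1 stood highest for Jarid2 (456 CPM) and Wt1 (11.1 CPM), replicate 4 for Nxf2 (446 CPM) and Sox9 (6.84 CPM), and replicate 5 for Spaca3 (4.66 CPM).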

How the results depend on the processing

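Only 2 polyA libraries were available, and the total RNA libraries were shallower and more variable, with a biological coefficient of variation of 0.545 where the polyA libraries had 0.0886, while edgeR fits 1 shared spread (0.451). Zeros among low genes differed between the kits: of genes with a mean of 1 to 5 CPM in the total RNA libraries, 862 of 3247 had 0 counts in at least 1 of them, against 0 of 3225 in the polyA libraries, and the cause was not tested. In the controls, leaving out 1 library gave 4942 to 7325 calls, 2809 to 3852 higher and 2133 to 3491 lower, and in the mutants 5239 to 7661, 2867 to 4056 and 2372 to 3831. Requiring a log2 difference of at least 1 left 2563 calls in the controls (1611 higher, 952 lower) and 2591 in the mutants (1632 and 959). Lower calls in the controls numbered 5378 with library totals alone, 5132 by limma-voom and 5539 with weights per kit, an alternative chosen after seeing the data, and in the mutants 5682 with library totals alone and 5797 with weights per kit. Of the named genes, library totals alone took 12 calls below the threshold and brought 4 above it. It reversed the sign of Sycp1 (-0.16), Rpl4 (-0.12) and Scml2 (-0.14), each still above the all-gene median of that scaling, -0.52. Among list medians, library totals alone reversed the sign of the Polycomb list (-0.24), which still lay above that all-gene median of -0.52. The differentiating spermatogonia median reached 0.00575 without total RNA replicate 2 and ran from -0.257 to that value with 1 library left out. The endothelial median became -0.45 with a filter at 5 CPM, -0.15 by limma-voom, -0.15 with weights per kit and -0.33 with no filter. The myoid median became -0.60 by limma-voom, -0.60 with weights per kit, -0.14 with the replicate block and ran from -0.0838 (without total RNA replicate 3) to 0.810 with 1 library left out. The microRNA share difference ran from -0.0156 to -0.00203 percentage points with 1 library left out, other protein-coding genes moved to -2.42 and unmatched genes to 0.0116 with structural, small nucleolar and ribosomal RNA-bearing genes out of the total, which by construction is a smaller total. The shortest minus the longest length bin was -2.34 by exon length and -2.64 by longest transcript. Elsewhere the cause was not tested. The kits share only replicate numbers 1 and 2, whose same-numbered libraries deviated with r = -0.0869 and 0.0173. The deviations of the 2 polyA libraries from their mean are mirror images, so these values cannot show whether the numbers pair the samples. A fit with the replicate block gave 6892 calls in the controls (3515 higher, 3377 lower).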
